A study of Mus musculus with 6 samples.

Results

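Regions of open chromatin at 8 mouse genes of T cell costimulation and inhibition were examined in 3 bone marrow populations: Cd80, Cd86, Cd274 (PD-L1), Pdcd1lg2 (PD-L2), Cd83, Tnfsf9 (4-1BB ligand), Cd40 and Cd28. Peaks of all 6 deposited lists were merged where they shared at least 1 bp, and a region belonged to a gene when that gene's interval was the nearest protein-coding one within 100 kb (RefSeq, mm10). The rule gave 90 regions of the 69171 in all, of which 65361 had a gene, and every one of the 8 genes had some. The label names ligands, but Cd40 and Cd28 encode receptors, and they are described as such.

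Accessibility was measured by ATAC-seq, which marks open DNA with a transposase, in cells sorted from naive Adig mice on the Balb/c strain, with 2 libraries per population. Adig mice carry a transgene in which Aire regulatory sequence drives GFP, so GFP reports the promoter of Aire and not the protein itself. The pc-BMACs were sorted as AireGFP+B220-CD138+TACI+ and the plasma cells as AireGFP-B220-CD138+TACI+, so the reporter alone separates their gates. Immature B cells were AireGFP-B220+CD138-TACI-IgM+. Each library came from 2000 to 15000 sorted cells; the labels state neither the age of the mice nor whether 2 libraries of a kind are from different mice.

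CD80 and CD86, the B7 molecules of antigen-presenting cells, bind CD28 on T cells to give the second signal of activation, and bind CTLA-4 to restrain it. PD-L1 and PD-L2 bind PD-1 and dampen T cell responses. CD40 receives help from T cells through CD40 ligand, while 4-1BB ligand costimulates T cells through 4-1BB; CD83 marks activated dendritic and B cells and stabilises surface MHC class II and CD86. CD28 is also expressed by plasma cells, where it has been linked to long-term survival.

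The RefSeq promoter table (GRCm38.p6, C57BL/6J sequence) held a window of 250 bases before to 50 after the start site for 3 of the 8 genes, all on the plus strand. They are shown because called peaks treated them differently: all of Cd80's window lay in plasma cell peaks and none of it in immature B cell peaks, Cd274's window lay in peaks of all 6 lists, and Pdcd1lg2's window lay in no peak. Capitals mark matches on either strand to GGG, any 5 bases and CC (NF-kB), TGANTCA (AP-1) or CAGCTG (E box); where matches abut, the capitals run on.
Cd80, chr16:38458683-38458982: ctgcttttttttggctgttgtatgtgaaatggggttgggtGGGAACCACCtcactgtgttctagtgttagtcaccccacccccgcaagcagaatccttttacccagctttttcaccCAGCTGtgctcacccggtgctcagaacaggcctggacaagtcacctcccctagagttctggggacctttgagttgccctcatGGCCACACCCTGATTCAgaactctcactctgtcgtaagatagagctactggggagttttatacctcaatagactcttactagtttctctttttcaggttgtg
Cd274, chr19:29367188-29367487: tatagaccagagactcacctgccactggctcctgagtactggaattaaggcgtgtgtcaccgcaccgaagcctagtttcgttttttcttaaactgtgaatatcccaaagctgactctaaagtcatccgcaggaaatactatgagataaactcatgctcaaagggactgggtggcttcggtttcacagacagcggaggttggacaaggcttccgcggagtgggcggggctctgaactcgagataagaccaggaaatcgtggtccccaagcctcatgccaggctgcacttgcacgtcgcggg
Pdcd1lg2, chr19:29410669-29410968: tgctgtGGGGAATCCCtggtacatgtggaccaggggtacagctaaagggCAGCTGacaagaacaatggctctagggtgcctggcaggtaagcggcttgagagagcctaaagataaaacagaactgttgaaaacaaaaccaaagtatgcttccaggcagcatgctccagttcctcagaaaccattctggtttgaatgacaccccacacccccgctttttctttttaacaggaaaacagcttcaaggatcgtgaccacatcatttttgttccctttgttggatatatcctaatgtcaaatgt
In Cd80's window the NF-kB letters stood at bases 41 to 50 on the plus strand and 199 to 208 on the minus strand, counted from the window's 5′ end. The AP-1 letters followed directly at bases 209 to 215, and the E box letters stood at bases 117 to 122. Pdcd1lg2 had the NF-kB letters, readable on both strands, at bases 7 to 16 and the E box at bases 50 to 55. Cd274 held none of these, and none of the 3 windows held GAAA, any 2 bases and GAAA (interferon response), GAGGAAGT (ETS, PU.1) or GGAA, any 2 bases and GAAA (ETS with IRF). Of all 32851 windows of this length, 50.8% held the NF-kB letters, 7.81% AP-1, 16.3% the E box, 3.44% the interferon response, 3.2% the PU.1 and 2.72% the ETS with IRF letters. The NF-kB letters are thus so loose that a match distinguishes little. Cd274's window had 15 CpG and 52.7% GC, those of Cd80 and Pdcd1lg2 3 CpG each with 49.7% and 46% GC, and the median window 7 CpG and 52.7% GC.

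The lists held 34070 to 51643 peaks, and only whether a region was called could be compared, since they carry no read depth: a region that was not called is not shown to be closed. With 2 lists against 2, the smallest two-sided exact permutation p is 0.333, so counts are given without p-values, beside the same counts over all assigned regions. Immature B cells 1 had the longest list and plasma cells 1 differed from the rest at erythroid genes: Hba-a1, Hbb-bt, Gata1 and Alas2 had a called region in that list alone. Of the 90 regions, 2 were called in that list alone (2.22%, against 2.13% of all assigned regions). Markers of the sorted types were of limited use as presence calls. Of 8 plasma cell genes, 7 or 8 had a region in each list. Their regions summed to 52 and 53 in the plasma cell lists, 53 and 47 in the immature B cell lists, and 51 and 49 in the pc-BMAC lists. These genes include Cd28, so this marker list is not separate from the 8 genes examined. Of the B cell genes, 8 of 8 had a region in each list except pc-BMACs 2, with 6 of 8. They summed to 49 and 50 regions in the plasma cell lists, 65 and 62 in the immature B cell lists, and 45 and 32 in the pc-BMAC lists. Since the 8 costimulation genes are also used by dendritic cells, macrophages and T cells, those markers were read the same way. Dendritic cell genes had 31 and 30 regions in the plasma cell lists, 44 and 41 in the immature B cell lists and 33 and 30 in the pc-BMAC lists, in 6 or 7 of 8 genes per list, with Clec9a at 0 in every list and Itgax at 0 in both pc-BMAC lists. Macrophage and monocyte genes had 26 and 22, 29 and 31, and 22 and 20 regions in the same order, in 6 to 8 of 8 genes per list. Lyz2 was at 0 in every list but immature B cells 2. T cell genes had 13 and 14, 12 and 12, and 13 and 11, in 5 to 7 of 8 genes per list. Cd8a was at 0 throughout and Cd3e at 0 in pc-BMACs 2. The dendritic cell genes Flt3, Zbtb46, Batf3, Siglech, Xcr1 and Ccr7 had a region in all 6 lists. So did Csf1r, Adgre1, Cd68, Ly6c2, Cebpb and Spi1 of the macrophage and monocyte genes, and Cd3d, Cd5 and Lck of the T cell genes. Cd4 had regions in both lists of plasma cells and of pc-BMACs, and in immature B cells 1. What share of any region below came from such other cells was not tested.

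Regions of the 8 genes were about as numerous in each population, but in part they were different regions. Plasma cell lists called 51 and 54 of the 90 (52.5 ± 2.12, SD, n = 2), immature B cell lists 60 and 50 (55 ± 7.07) and pc-BMAC lists 53 and 45 (49 ± 5.66). The ranges of the 3 populations overlapped. Regions of the 8 genes made up 0.148% and 0.161% of the assigned regions called in the plasma cell lists. They made up 0.144% and 0.141% in the pc-BMAC lists and 0.124% and 0.118% in the immature B cell lists. Similar counts were thus a smaller share of the longer immature B cell lists. Called sequence came to 27802 and 26458 bp in the plasma cell lists, 49468 and 33530 bp in the immature B cell lists and 38449 and 30768 bp in the pc-BMAC lists. Here the plasma cell lists lay below all others, as they did over the whole genome (21.9 and 21.5 Mb against 23.4 Mb or more). The 2 lists of a population shared 75% of the regions called in either of them in plasma cells (76.8% over all assigned regions), 69% in pc-BMACs (76.9%) and 77.4% in immature B cells (77.5%).

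**Figure D1:**
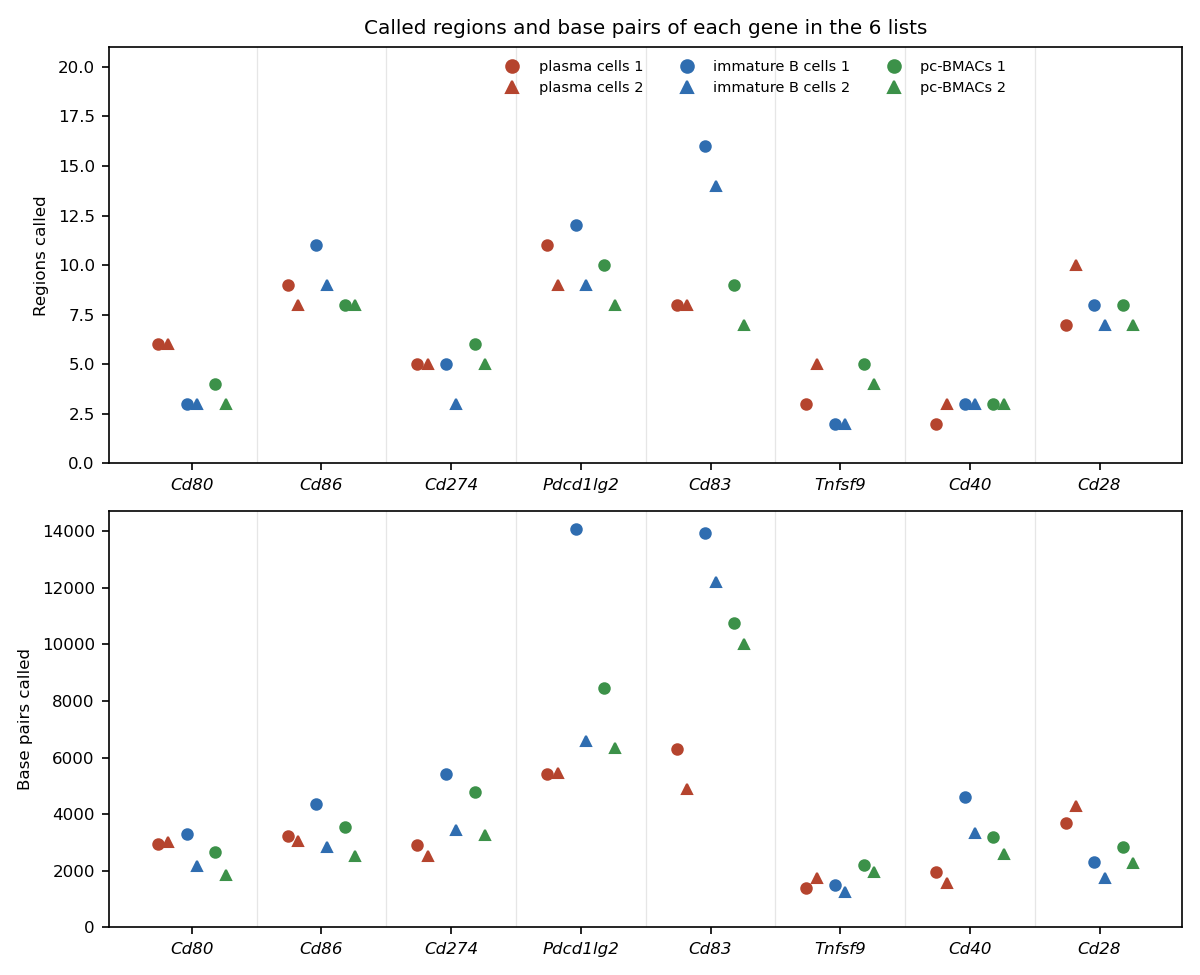
Regions called (top) and base pairs called (bottom) for each gene, with 1 symbol per list: circles are library 1 and triangles library 2 of each population. Cd80 has 6 regions in both plasma cell lists against 3 or 4 in the others, and Cd83 has 16 and 14 in immature B cells against 7 to 9 in the others.

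All 6 lists called 21 of the 90 regions (23.3%, against 30.6% of all assigned regions), and each gene had at least 1 of them. A region called in all 6 lists spanned an end of the gene interval at 5 genes: Cd86, Cd274, Cd83, Cd40 and Cd28. The one at Cd274's lower end was assigned to Plgrkt, a gene that overlaps Cd274. Neither of these numbers of genes was set against a share over all genes. Of all promoter windows, an unlike measure, 35.4% had a region called in all 6 lists, so such calls were common. A further 17 regions were called in 1 list alone (18.9%, against 21.9%), 9 of them in immature B cells 1 (10% of the 90, against 9.69%). Regions called throughout were wide (median 1131 bp) and those of 1 list narrow (240 bp), and the medians over all assigned regions were 1158 and 197 bp. Of the 90 regions, 49 (54.4%) overlapped their gene, against 67.8% of all assigned regions.

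At 10 regions both plasma cell and both pc-BMAC lists had peaks and neither immature B cell list did, 11.1% of the 90 against 3.73% of all assigned regions. They were spread over 7 of the 8 genes: 2 each at Pdcd1lg2, Cd28 and Tnfsf9, and 1 each at Cd80, Cd86, Cd274 and Cd83. Cd40 had none. The largest group called in 1 population alone was that of immature B cells, with 9 regions (10%, against 13.6%), of which 5 were Cd83's. Plasma cells alone had 4 regions (4.44%, against 1.51%), 1 at each of Cd80, Cd86, Cd274 and Pdcd1lg2. Both pc-BMAC lists alone had 1, at Pdcd1lg2 (1.11%, against 4.53%). Plasma cells with immature B cells, without pc-BMACs, had 2 (2.22%, against 4.68%), and immature B cells with pc-BMACs, without plasma cells, had 2 (2.22%, against 1.07%). Without immature B cells 2 the 9 regions of immature B cells alone were 18, and without pc-BMACs 1 or 2 the 1 region of pc-BMACs alone was 2 or 4. Leaving out a library eases the rule, since fewer lists must agree, so such rises come largely by construction. The remaining 24 regions were called in 2 to 5 lists with at least 1 population split between its libraries.

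**Figure D2:**
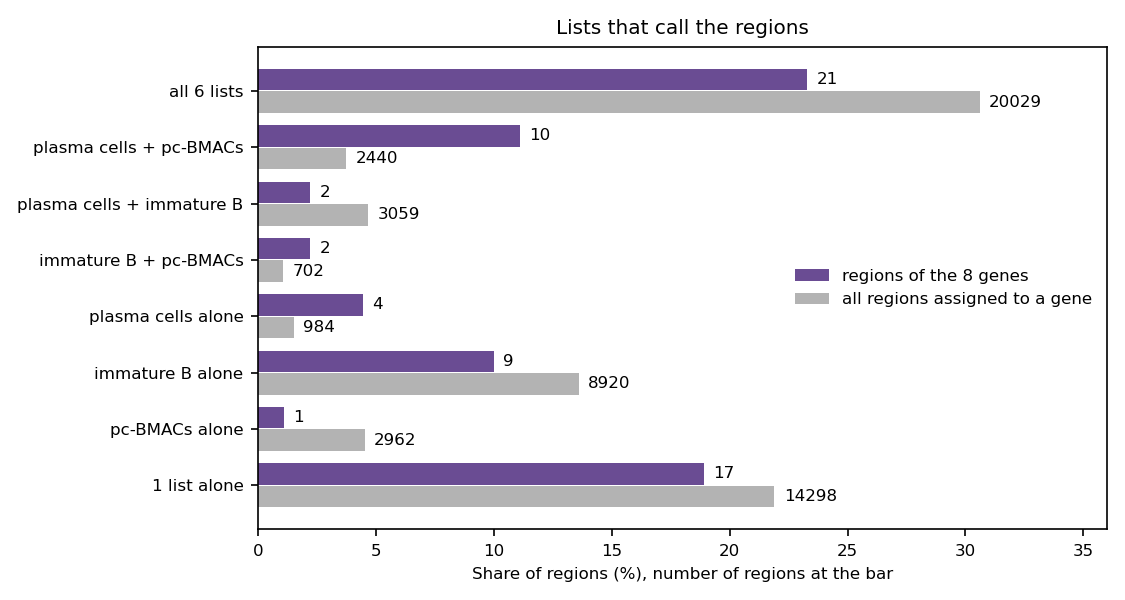
Share of regions in percent (x axis) by the lists that call them (y axis), for the 90 regions of the 8 genes (purple) and all 65361 regions with a gene (grey), with the number of regions at each bar. The purple bar for plasma cells with pc-BMACs reaches 11.1% and the grey one 3.73%; a population counts when both its lists call the region, and the groups it is set against must have neither.

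Between plasma cells and immature B cells, 18 of 85 regions were called in both plasma cell lists and neither immature B cell list (21.2%, against 6.46% of all assigned regions), and 14 the other way (16.5%, against 18.4%). The plasma cell count came from 7 genes, with 4 regions each at Pdcd1lg2 and Cd28 and 3 at Cd80, and the immature B cell count from 5 genes, with 6 at Cd83. Between pc-BMACs and immature B cells, 12 of 83 regions were called in both pc-BMAC lists and neither immature B cell list (14.5%, against 10.5%), and 13 the other way (15.7%, against 23%). Between pc-BMACs and plasma cells the lists differed least. Of 71 regions, 3 were called in both pc-BMAC lists and neither plasma cell list (4.23%, against 8.48%), and 7 the other way (9.86%, against 8.99%). Any 2 of these comparisons share the lists of 1 population, so their counts are not independent. The 18 regions of plasma cells and the 12 of pc-BMACs both include the 10 that these populations shared without immature B cells. Library names carry an R number that the labels do not explain, and any 2 populations share it in 1 pair of libraries. In the pair of plasma cells 2 and immature B cells 2, 22 of 72 regions were called in the plasma cell library alone (30.6%, against 12.6% of all assigned regions) and 18 the other way (25%, against 30.8%). Leaving out a library eased the rule here too, so rises came largely by construction. The 14 regions of immature B cells against plasma cells were 23 without immature B cells 2, and the 13 against pc-BMACs were 24; the 12 of pc-BMACs against immature B cells were 19 without pc-BMACs 2, and the 7 of plasma cells against pc-BMACs were 11 without plasma cells 2 and 13 without pc-BMACs 1. The 3 regions were 5 to 8 when any 1 of the 4 libraries was left out, and 9 under the rule that a list's peaks fill 50% or more of a region.

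**Figure D3:**
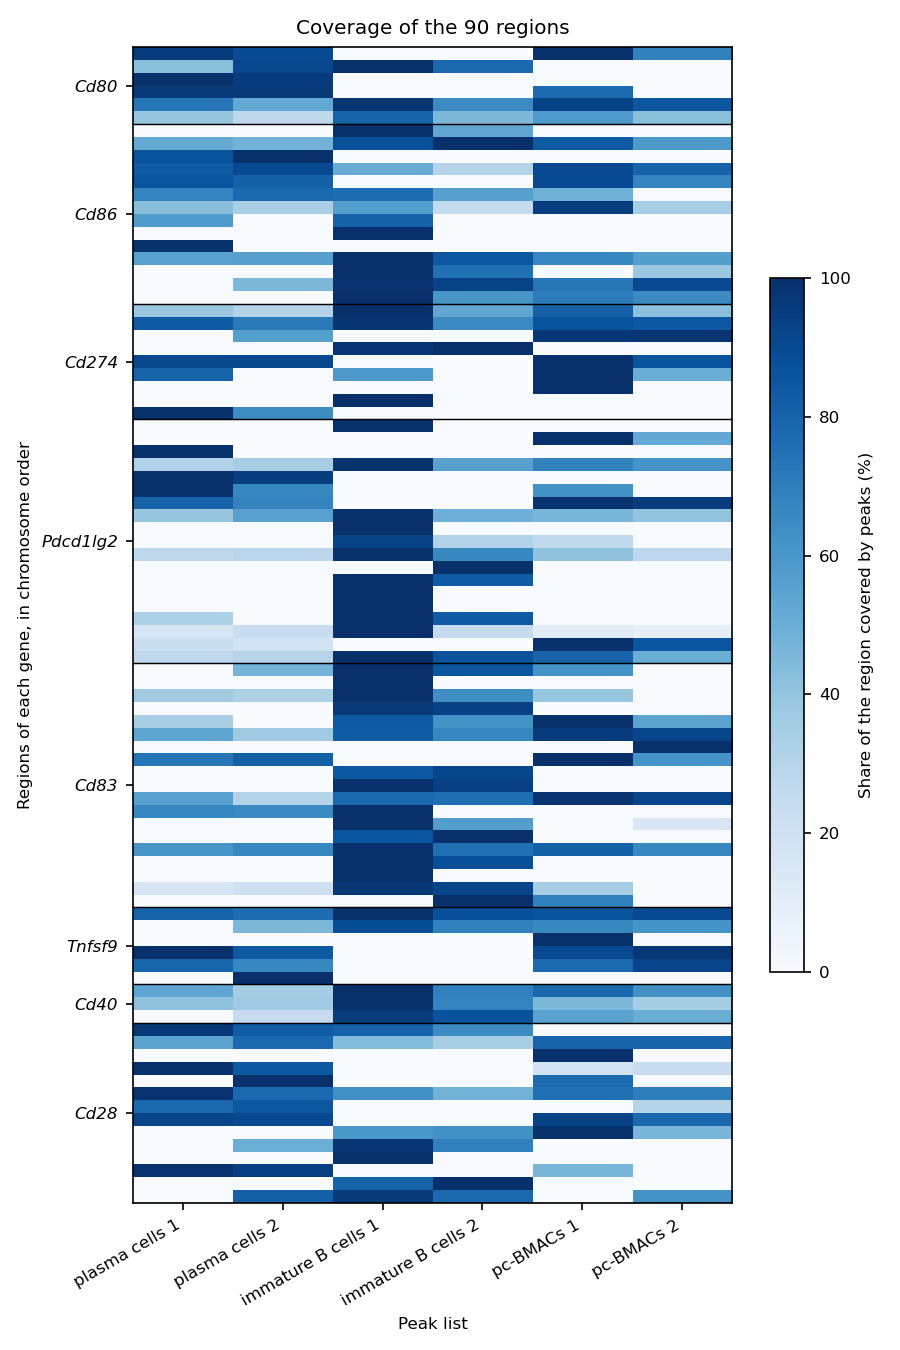
Share of each region covered by the peaks of each list, in percent (colour), for the 90 regions in chromosome order within each gene (rows) and the 6 lists (columns). Immature B cells 1 fills most of the regions it calls, and white cells are regions with no peak in that list.

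Cd80 encodes the B7 ligand B7-1. Its 6 regions all lay inside the gene (chr16:38457430-38495958), and both plasma cell lists called all 6, against 3 in each immature B cell list and 4 and 3 in the pc-BMAC lists. The region chr16:38458617-38459161 holds the promoter window printed above, whose RefSeq start site lies inside the gene interval. The interval's lower end, the upstream end on the plus strand, was spanned by no region. The nearest to it was this same region, 1187 bp away. Peaks covered 95.2% and 89.2% of the region in the plasma cell lists, 99.6% and 68.4% in the pc-BMAC lists, and 0 in both immature B cell lists. The window itself was covered over 300 and 300 bases in plasma cells and 300 and 298 in pc-BMACs. Of all 32851 promoter windows, 128 (0.39%) were called in this way, but 58% of the windows had no region in any list. The next region, chr16:38461545-38462578, went the other way for pc-BMACs: immature B cell peaks covered 100% and 78.5% of it, plasma cell peaks 41.9% and 90.8%, and pc-BMAC peaks 0 in both lists. Of the others, chr16:38466050-38466374 was called in plasma cells alone (100% and 95.7%), and chr16:38471804-38472168 in plasma cells (95.9% and 95.9%) and pc-BMACs 1 (77%). The last 2 were called in all 6 lists. Cd80 was the only one of the 8 genes at which both plasma cell lists called every region.

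Cd86 encodes the B7 ligand B7-2. It had 14 regions, 11 in the gene (chr16:36568956-36666158) and 3 within 10 kb beyond its upper end. Plasma cell lists called 9 and 8, immature B cell lists 11 and 9, and pc-BMAC lists 8 and 8, so the totals overlapped. A cluster of 3 neighbouring regions inside the gene showed 3 different patterns. The first, chr16:36625927-36626282, was called in plasma cells alone (86.5% and 100% covered). The second, chr16:36626520-36627167, was called in all 6 lists, with 82.9% and 89.5% covered in plasma cells, 90.1% and 80.2% in pc-BMACs, and 50.8% and 30.4% in immature B cells. The third, chr16:36627607-36628203, was called in the plasma cell lists (85.9% and 80.9%) and the pc-BMAC lists (89.6% and 67.2%) and in neither immature B cell list. At this cluster immature B cells therefore had 1 region where plasma cells had 3. The cluster beyond the gene's upper end was the reverse. There chr16:36675335-36675662 was covered over 100% and 60.4% in immature B cells, 70.7% and 65.2% in pc-BMACs and 0 in either plasma cell list, and its 2 neighbours were called in both immature B cell lists but in 0 or 1 of the plasma cell lists. Immature B cells alone called chr16:36588034-36588315, and the region at the gene's upper end, chr16:36665681-36666284, was called in all 6 lists.

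Cd274, which encodes PD-L1 (chr19:29362107-29388095), had 9 regions, of which plasma cell lists called 5 and 5, immature B cell lists 5 and 3, and pc-BMAC lists 6 and 5. The region chr19:29366726-29367856 holds the second window printed above, whose start site lies inside the gene interval and not at its lower end. It was called in all 6 lists with 65.4% to 98.4% covered. It and chr19:29363300-29365590, also called in all 6 lists, overlap Plgrkt as well, so neither can be tied to Cd274 alone. Further into the gene the populations parted. Immature B cells alone called chr19:29371467-29372934, a wide region of 1468 bp that their peaks covered over 97.4% and 99.8%. Plasma cells and pc-BMACs shared chr19:29374958-29375467, covered over 90.4% and 90.8% in plasma cells, 100% and 86.1% in pc-BMACs and 0 in immature B cells. Plasma cells alone called chr19:29391366-29391599, 3.27 kb beyond the gene. The region at chr19:29368588-29369268 was called in both pc-BMAC lists and plasma cells 2. Both pc-BMAC lists, plasma cells 1 and immature B cells 1 called chr19:29380464-29380947. Single lists called the rest, pc-BMACs 1 chr19:29384954-29385272 and immature B cells 1 chr19:29388858-29389165.

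Pdcd1lg2, which encodes PD-L2 (chr19:29410919-29472927), lies next to Cd274 and had 19 regions. Plasma cell lists called 11 and 9, immature B cell lists 12 and 9, and pc-BMAC lists 10 and 8. Its promoter window, printed above, met no region, as did 58% of all windows; the nearest region, chr19:29412737-29412923, was called in plasma cells 1 alone. The gene had the 1 region of all 90 that both pc-BMAC lists and no other called, chr19:29406013-29406454, which lies 4.46 kb before the gene and was covered over 100% and 52.3%. Plasma cells alone called chr19:29420601-29420924 (99.7% and 94.8%), and immature B cells alone chr19:29463711-29464357 (100% and 82.7%). Each population thus had a region of its own here. Plasma cells and pc-BMACs shared chr19:29429085-29430218, covered over 80.2% and 67.7% in plasma cells and 98.5% and 95% in pc-BMACs. They also shared chr19:29493351-29495437, 20.4 kb beyond the gene, where pc-BMAC peaks covered 100% and 85.4% and plasma cell peaks 22.4% and 18.7%. Neither immature B cell list called these 2 regions. The widest region of the gene, chr19:29483459-29488327 (4869 bp), was called in all 6 lists but filled by immature B cells 1 (100%), with 8.32% to 24.9% covered in the other lists.

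**Figure D4:**
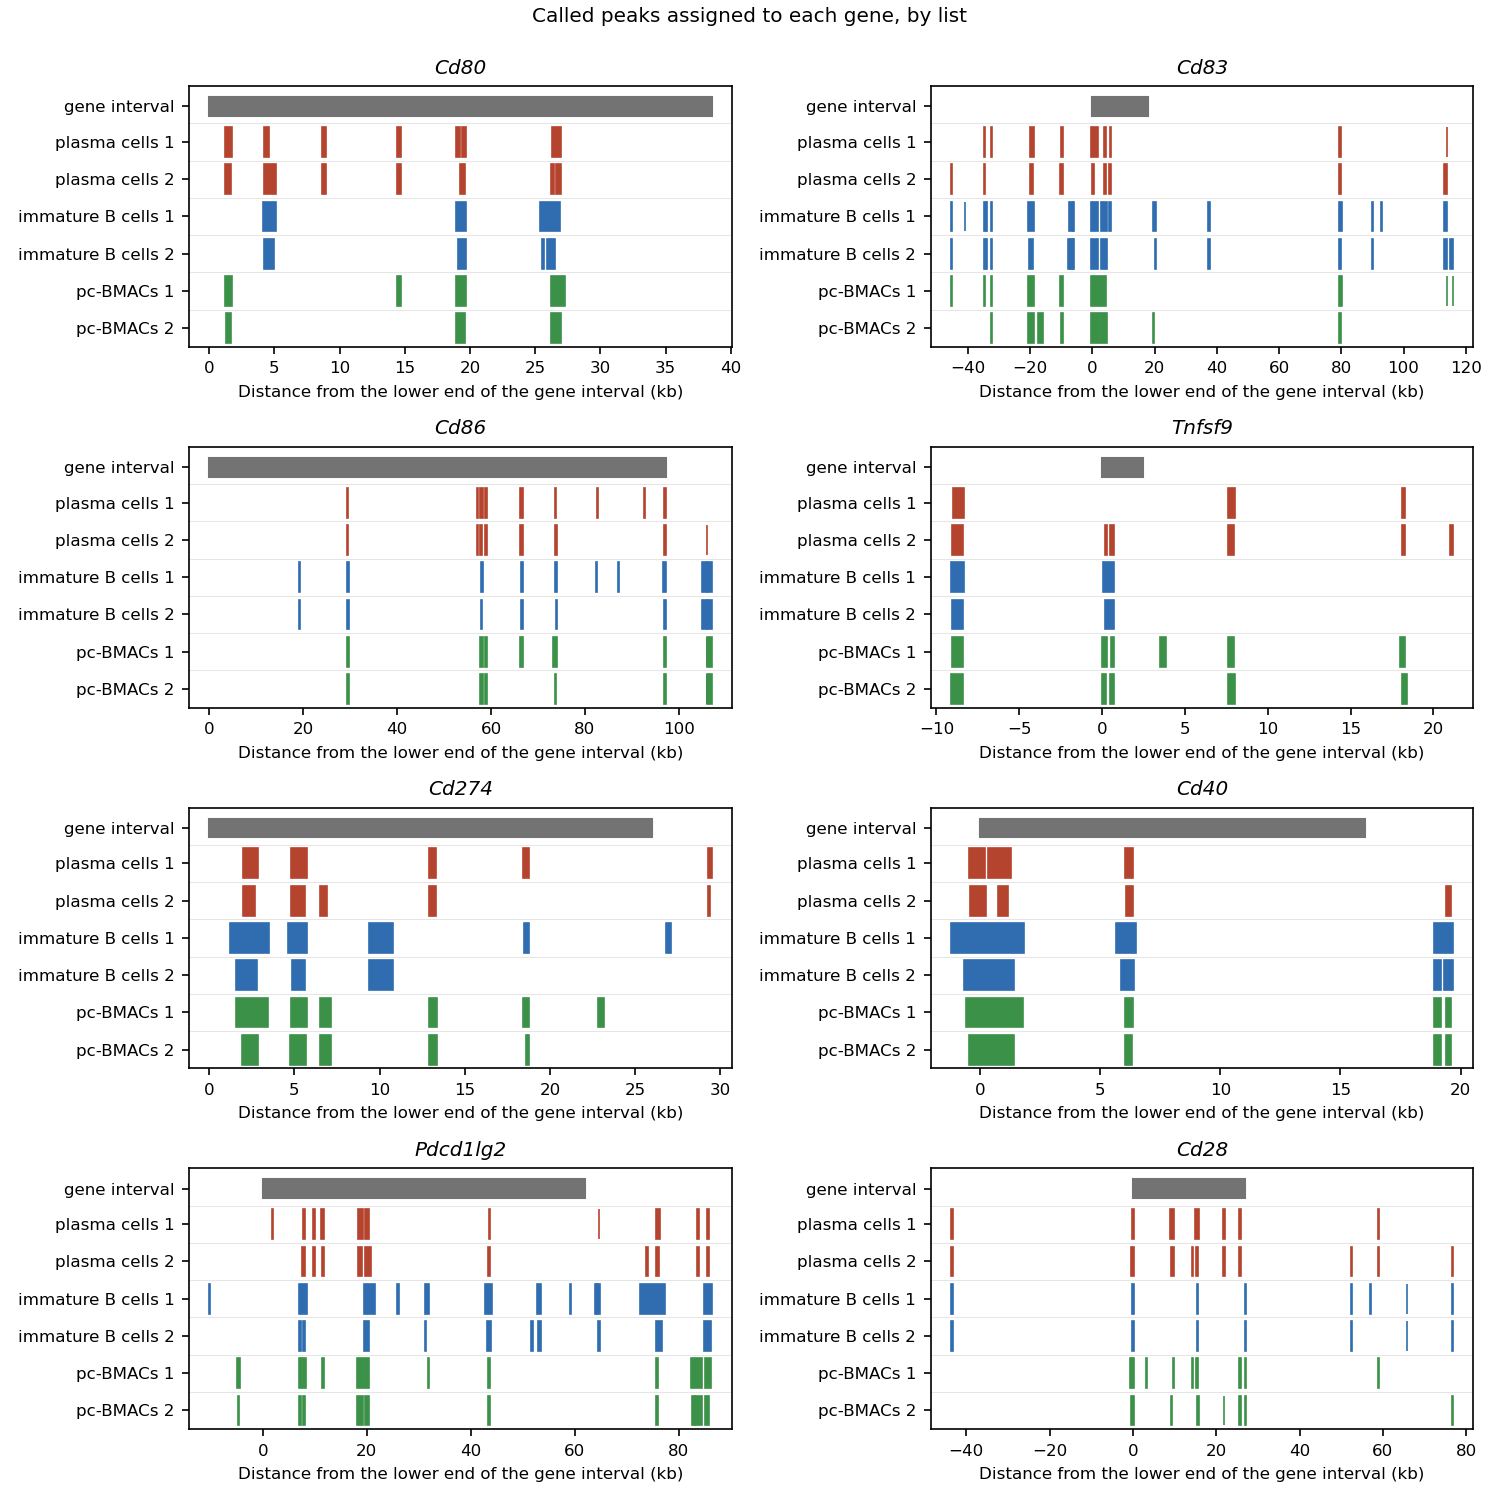
Called peaks of each gene in each list (rows, coloured by population), against distance in kb from the lower end of the gene interval (grey bar), in the order of the chromosome and not of transcription. At Cd80 the plasma cell and pc-BMAC rows have a peak near the left end of the gene where both immature B cell rows have none, and at Cd83 the immature B cell rows have the most peaks.

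Cd83 was the gene with most immature B cell regions. It encodes a surface protein of activated antigen-presenting cells and lies in a stretch without other protein-coding genes (chr13:43785112-43803133; 114 kb to Rnf182 before it and 928 kb to Jarid2 after it), so regions far from it fall to it by the rule. Immature B cell lists called 16 and 14 of its 19 regions, plasma cell lists 8 and 8, and pc-BMAC lists 9 and 7, so both immature B cell lists lay above the other 4, whose ranges overlapped. Over the whole genome the immature B cell lists were also the longest, with 51643 and 46534 peaks against 34070 to 38607 in the other lists. Of all assigned regions 13.6% were called in immature B cells alone, and at Cd83 these were 5 of the 19. The widest, chr13:43777253-43778734, lay 6.38 kb before the gene and was covered over 84.4% and 91.1%, and the others were 5.82 kb and 33.8 kb before it and 19.2 kb and 71.8 kb after it. Within 20 kb of the gene 3 of the 5 remained. Plasma cells and pc-BMACs shared chr13:43774782-43775731, which lies between these, 9.38 kb before the gene, and was covered over 72.9% and 81.6% in plasma cells and 100% and 61.7% in pc-BMACs. The region over the gene's lower end, chr13:43784500-43789686, was called in all 6 lists, and was filled most in pc-BMACs: their peaks covered 98.8% and 91.8%, those of immature B cells 77.9% and 76.1%, and those of plasma cells 55.5% and 30.8%. Over the whole genome pc-BMAC peaks were also the widest (median 523 and 489 bp, against 386.5 to 453 bp in the other lists). Depth is unknown, so this order does not show a difference in accessibility. The farthest region inside the limit of 100 kb lay 97.4 kb from the gene and was called in immature B cells 2 and pc-BMACs 1. The first beyond it, at 103 kb, was called in both immature B cell lists alone and is not counted.

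Tnfsf9, which encodes 4-1BB ligand (chr17:57105287-57107758), showed the opposite balance. Its 6 regions were called 3 and 5 times in plasma cell lists, 5 and 4 times in pc-BMAC lists and 2 and 2 times in immature B cell lists. Both regions of immature B cells were also called elsewhere: chr17:57096156-57096977 in all 6 lists, and chr17:57105260-57106009, at the gene's lower end, in all but plasma cells 1. Plasma cells and pc-BMACs shared 2 regions beyond the gene. The first, chr17:57112875-57113318, was covered over 100% and 84% in plasma cells and 90.1% and 97.1% in pc-BMACs, and the second, chr17:57123315-57123658, over 79.4% and 66.3%, and 77.6% and 91.9%. They lie 5.12 and 15.6 kb from Tnfsf9, on the side of Cd70, another TNF family ligand 38.2 kb away. Cd70 itself had 2 regions, neither of them called in a plasma cell list.

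Cd40 encodes the receptor for T cell help and is expressed by B cells, dendritic cells and macrophages. It had the fewest regions, 3, none of them called in both lists of 1 population and neither of another. The regions at chr2:165054399-165057428, over the gene's lower end (chr2:165055614-165071654), and at chr2:165061280-165062094 were called in all 6 lists. The third, chr2:165074520-165075327, lacked a peak in plasma cells 1 alone. Peak widths did differ. Of the region over the gene's lower end, immature B cell peaks covered 100% and 69.1%, pc-BMAC peaks 78.5% and 62.4%, and plasma cell peaks 53.6% and 35.1%. Called base pairs of the gene were 4614 and 3345 in the immature B cell lists, 3198 and 2586 in the pc-BMAC lists and 1962 and 1562 in the plasma cell lists, 3 ranges that did not overlap. Peak width depends on depth, which is unknown, so these widths do not show a difference in accessibility.

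Cd28 encodes the receptor of CD80 and CD86 (chr1:60746388-60773359). It had 14 regions, of which plasma cell lists called 7 and 10, immature B cell lists 8 and 7, and pc-BMAC lists 8 and 7. Totals overlapped, but called base pairs were 3683 and 4272 in the plasma cell lists against 2842 and 2271 in the pc-BMAC lists and 2301 and 1747 in the immature B cell lists, so that Cd28 was the only one of the 8 genes at which both plasma cell lists had more called sequence than every other list. As at Cd40, peak width depends on the unknown depth, so called base pairs do not show a difference in accessibility. The region over the gene's lower end, chr1:60745704-60746595, was called in all 6 lists, with 43.9% and 34.1% covered in immature B cells and 54.3% to 80.2% in the other lists. Of its regions, 4 were called in both plasma cell lists and neither immature B cell list, 3 of them inside the gene. The one nearest the gene's upper end, chr1:60771776-60772296, was covered over 92.1% and 90% in plasma cells and 92.3% and 78.3% in pc-BMACs. At chr1:60755360-60756190 the shares were 100% and 84.4% in plasma cells but 18.1% and 22.9% in pc-BMACs. The third, chr1:60767953-60768455, was called in plasma cells (77.9% and 85.1%) and pc-BMACs 2 (29.8%), and the fourth, chr1:60805201-60805525, lay 31.8 kb beyond the gene and was called in plasma cells (98.8% and 93.8%) and pc-BMACs 1 (46.2%). Within the gene immature B cells therefore had fewer regions than plasma cells, while outside it chr1:60812082-60812268 was called in immature B cells alone and chr1:60702671-60703139 in both of them and in neither pc-BMAC list. The region over the gene's upper end, chr1:60773246-60773568, was called in immature B cells (60.1% and 62.5%) and pc-BMACs (100% and 46.4%) and not in plasma cells.

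Other genes of costimulation and inhibition were listed by role. Of 23 further ligand genes, 20 had a region, 120 in all, of which 4 (3.33%) were shared by plasma cells and pc-BMACs without immature B cells, close to the 3.73% of all assigned regions. Of 20 further receptor genes, 18 had a region, 100 in all, of which 8 (8%) had that pattern. Ctla4, the inhibitory receptor for CD80 and CD86 and the next gene after Cd28, 136 kb away, had 3 of the 8. The pc-BMAC lists called 8 and 7 of its 9 regions, the plasma cell lists 7 and 6 and the immature B cell lists 5 and 3. Immature B cells alone called 15 ligand regions (12.5%) and 8 receptor regions (8%), against 13.6%.

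Among these lists, Cd200, Cd276, Fasl and Tnfrsf8 had most regions called in both lists of 1 population and neither of another (6 each), and Cd24a, Cd47 and Ctla4 followed with 5 each. Tnfrsf8, which encodes CD30, had 10 and 11 regions in the pc-BMAC lists, 6 and 5 in the plasma cell lists and 8 and 6 in the immature B cell lists, with 3 called in both pc-BMAC lists alone. Cd276, which encodes the B7 family member B7-H3, had 4 and 7 in the immature B cell lists, 2 and 3 in the plasma cell lists and 1 and 1 in the pc-BMAC lists. These 2 genes leaned in opposite directions in pc-BMACs. Fasl, which encodes the death ligand, had 14 and 11 regions in the immature B cell lists, 10 and 10 in the pc-BMAC lists and 6 and 7 in the plasma cell lists. Cd24a, a glycoprotein of early B cells, had 10 and 7 in the immature B cell lists, 6 and 4 in the plasma cell lists and 5 and 2 in the pc-BMAC lists. Cd200, an inhibitory ligand, had 6 and 5, 6 and 4, and 7 and 6 in the lists of the plasma, immature B and pc-BMAC populations, and Cd47, the signal against phagocytosis, 13 and 12, 14 and 10, and 11 and 11, so that neither total set a population apart.

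By the number of regions called in each of the 6 lists, no gene had the same 6 numbers as any member with at least 5 regions. The nearest genes, by the summed absolute difference over the lists, were Hdac7, Rai14 and Ctsb for Cd80 (2, 2 and 3 regions) and Arf6, Atf7ip and Nfatc2 for Cd86 (1 each). Arfgap3 and Bcat2 were among the nearest for Cd274 (2 each). For Pdcd1lg2 they were Sema4b, Ube2h and Arf6 (4, 4 and 5), for Cd83 Bhlhe40, Phlpp1 and Prkar2b (4 each), for Tnfsf9 Ide, 1810046K07Rik and Akap9 (1, 2 and 2), and for Cd28 Pdlim5, Nt5c2 and Tnfrsf13b (2, 3 and 3). Tnfrsf13b encodes TACI, one of the markers of the sort, and had 8 and 8 regions in the plasma cell lists, and 8 and 7 in those of each other population. Ties were broken by symbol.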

How the data were processed

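The authors deposited 1 peak list per library in mm10, with 5 columns (chromosome, start, end, name and a score). The deposited score was 1000 in every row and ranked nothing. Per the submitters' processing notes, Bowtie2 2.3.3, HOMER 4.10 and bedtools were used; what each did, with which settings, and which lists were intersected is not stated. The deposited lists hold no counts, so depth is unknown and no interval was computed.

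Peaks were merged at 1 bp of overlap with Python 3.11.15. A list had a region when any of its peaks overlapped it. Each region went to the nearest RefSeq (GRCm38.p6) protein-coding gene interval within 100 kb; at equal distance the larger overlap, then the symbol, decided. The gene intervals carry no strand or exons. Merging and assignment were checked on simulated peaks and against bedtools 2.31.1.

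A group-only region was in both lists of 1 population and neither of another. Alternatives were 50% coverage, the widest 34070 peaks per list, 20 kb, and leaving out each library; leaving out regions tied between genes, and reading only the pair of libraries with a shared R number, were added after seeing the data. The members and lists were chosen with earlier results of these data known. Named genes were all members, the 6 further costimulation genes with most group-only regions, neighbours, and the 3 genes nearest each member of 5 or more regions; a few named by these rules are not reported here.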

Additional observations from a re-analysis of the deposited data

How the results depend on the processing

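The 90 regions became 76 with the widest 34070 peaks of each list, 72 within 20 kb, 88 without tied regions, and 81 to 89 when a library was left out. Both counts that stood farthest above all assigned regions stayed above them in the 3 settings where both shares are given, least so with the widest peaks, where the share over all assigned regions rose. They are not separate results, since the 10 regions shared by plasma cells and pc-BMACs are among the 18 of plasma cells. The counts without 1 library have no such share beside them. They come from an eased rule and do not show that the counts held. Regions of both plasma cell lists and neither immature B cell list numbered 18 (21.2%, against 6.46%), then 18 at 50% coverage (21.4%, against 5.73%), 17 with the widest peaks (23.9%, against 10%), 16 within 20 kb (23.9%, against 6.56%) and 18 to 21 without 1 library. Regions shared by plasma cells and pc-BMACs numbered 10 (11.1%, against 3.73%), then 9 at 50% coverage (10%, against 2.67%), 9 with the widest peaks (11.8%, against 5.8%), 9 within 20 kb (12.5%, against 3.82%) and 10 to 13 without 1 library; at 50% coverage 8 of the 10 remained, without chr1:60755360-60756190 of Cd28 and chr19:29493351-29495437 of Pdcd1lg2.

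Other counts depended on the rule. At 50% coverage regions in all 6 lists fell from 21 to 5, regions of both pc-BMAC lists and neither plasma cell list rose from 3 to 9, those of immature B cells and not plasma cells from 14 to 27, those of immature B cells and not pc-BMACs from 13 to 20, and those of 1 population alone from 9 to 17 in immature B cells, 4 to 7 in plasma cells and 1 to 2 in pc-BMACs. This rule penalises lists with narrow peaks at regions made wide by another list. With the widest peaks, pc-BMACs against plasma cells gave 5, pc-BMACs alone 2, and immature B cells against pc-BMACs 8, which was also 8 within 20 kb. Fewer lists must agree when 1 library is left out, so counts then rise largely by construction. Leaving out 1 library gave 5 to 8 for pc-BMACs against plasma cells and 8 to 13 for the reverse, where it was 11 without plasma cells 2 and 13 without pc-BMACs 1. It gave 16 to 23 for immature B cells against plasma cells and 14 to 24 against pc-BMACs, both highest without immature B cells 2. It gave 12 to 19 for pc-BMACs against immature B cells, highest without pc-BMACs 2, and 21 to 24 for regions in all remaining lists. Regions of 1 population alone numbered 10 to 18 for immature B cells, 5 to 6 for plasma cells and 2 to 4 for pc-BMACs. Of the libraries with a shared R number, plasma cells 1 had 17 regions that pc-BMACs 2 lacked (27.4%, against 21.8%) and lacked 11 (17.7%, against 15.4%), and pc-BMACs 1 had 20 that immature B cells 1 lacked (25%, against 18%) and lacked 27 (33.8%, against 37.5%); with 1 library a side more regions differ by construction. No paired analysis was possible because any 2 populations share only 1 R number, the numbers in the sample titles follow another order, and the counts come from no test.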
